A study of Mus musculus with 12 samples.

Results

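Vomeronasal type 2 receptors, taste receptors and trace amine-associated receptors are families of chemosensory G protein-coupled receptors, and their transcripts were examined here in the liver of mice lacking Phgdh in hepatocytes. The probes were chosen by gene symbol, as all non-control probes whose RefSeq accession carried a symbol beginning with Vmn2r, Tas1r, Tas2r or Taar. This gave 168 of the 39429 probes on the array, for 142 genes. They were 113 probes of 90 Vmn2r genes, 3 probes of 3 Tas1r genes, 37 probes of 35 Tas2r genes and 15 probes of 14 Taar genes. No measured value entered the choice. Symbols of 2 pseudogenes share the Vmn2r prefix and were included.

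Total liver RNA was hybridized to 12 single-color Agilent arrays, 1 mouse per array. All mice were male, of strain C57BL/6 and 30 weeks old, and were fed laboratory chow with casein, and the Floxed mice were littermates of the LKO mice. The 6 Floxed mice carried Phgdh flox/flox without Cre. The 6 LKO mice were Alb+/Cre;Phgdh flox/flox, so that Cre, driven by the albumin promoter, acts in hepatocytes, while the other cells of the liver keep Phgdh. The 12 arrays lay on 3 slides. Floxed mice 1 to 4 were on slide 1 and LKO mice 3 to 6 on slide 3, while slide 2 carried both genotypes, as Floxed mice 5 and 6 and LKO mice 1 and 2. Genotypes could therefore be compared within a slide on slide 2 alone.

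Vmn2r receptors are expressed by the basal layer of the vomeronasal organ, where they detect peptides and proteins and signal through Gnao1 and the channel Trpc2. Tas1r receptors pair up for sweet and umami taste, with Tas1r3 as the shared subunit, and Tas2r receptors detect bitter compounds. Both taste families signal through Gnat3, Plcb2, Itpr3 and Trpm5. Most Taar receptors are expressed by olfactory sensory neurons, where they detect volatile amines and signal through Gnal, Adcy3 and cyclic nucleotide-gated channels. Taste receptors and taste signaling genes are also known from tuft cells and other chemosensory cells of internal organs, whereas liver is not a tissue in which Vmn2r or Taar receptors are known to act.

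The targeted gene was examined first. The Phgdh probe with signal on all arrays had a lowest, median and highest log2 intensity of 4.81, 5.17 and 5.50 in Floxed mice and of 4.23, 4.57 and 5.30 in LKO mice. The mean was lower in LKO mice by a log2 fold change of -0.48 (SE 0.18, limma p = 0.0176, adjusted p = 0.442, two-sided exact permutation p = 0.0346). LKO mice 1 and 2, at 5.07 and 5.30, lay inside the Floxed range, and within slide 2 the difference was -0.055. When arrays were scaled to their 75th percentiles, it was -0.34 and did not pass the threshold. Another probe for Phgdh, whose signal clearly exceeded background in 1 Floxed mouse and 3 LKO mice, did not show this decrease: its ranges overlapped, with means of 2.87 (Floxed) and 3.17 (LKO) and a log2 fold change of 0.30 (exact permutation p = 0.253). Where the probes lie relative to the deleted exons is not given in the files. The hepatocyte markers (Alb, Apoa1, Ttr, Cps1, Serpina1a and Tat) were well above background on all arrays. In whole liver, fewer cells of a type and less RNA per cell cannot be told apart.

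Most of these receptors gave no signal well above background in liver, the mark set by the scanner software for a spot that clearly exceeds its local background. Of the 168 probes, 131 (78.0%) carried the mark on no array, 30 on 1 to 11 arrays, and 7 (4.17%) on all 12. Over all probes on the array, 32.1% carried it on no array and 51.7% on all 12. The Olfr probes, 1157 in number, gave 74.9% and 7.43%, and the 177 probes of the type 1 vomeronasal receptors, Vmn1r, gave 78.5% and 9.60%. At least 1 marked array was found for 37 of the 142 genes.

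The count of marked probes was taken by family. All 3 Tas1r probes were marked on at least 1 array, compared with 9 of 37 Tas2r probes, 23 of 113 Vmn2r probes and 2 of 15 Taar probes. The probes marked on all arrays were those of Tas1r3, Tas2r109, Tas2r113, Tas2r131, Vmn2r3, Vmn2r4 and Vmn2r10. Their mean log2 intensities ran from 4.61 to 8.52, while the 131 probes with no mark lay between 0.88 and 2.47. These intensities belong to different probes and do not rank the transcripts.

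The number of receptor probes marked per array was 16, 10, 10, 14, 18 and 17 for Floxed mice 1 to 6 and 15, 17, 22, 18, 14 and 23 for LKO mice 1 to 6. The Floxed share was 8.43% ± 2.08 (SD, n = 6), the LKO share was 10.8% ± 2.18 (SD, n = 6), and their ranges overlapped, with means 2.38 percentage points apart. Slide 1 averaged 7.44%, slide 3 averaged 11.5%, and the LKO arrays of slide 2 averaged 9.52%. Within slide 2 the LKO share was thus lower, by -0.89 percentage points. With the weaker mark for a positive and significant signal, the shares were 29.8% and 30.1%. Over all probes, 58.2% and 59.1% were well above background.

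**Figure D1:**
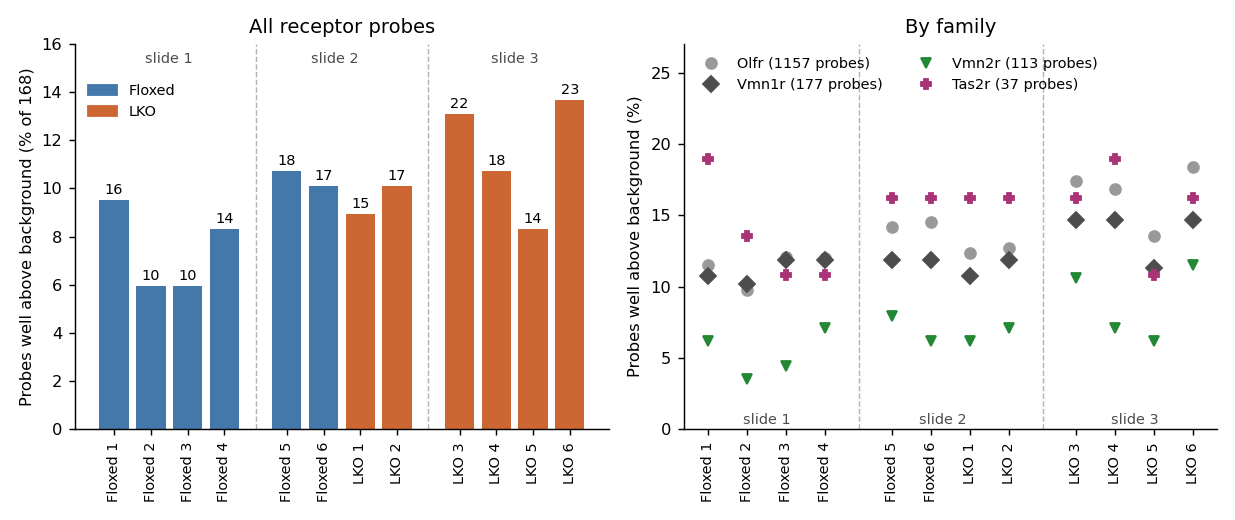
Share of probes well above background on each array, in percent, by slide. Left, bars for the 168 receptor probes colored by genotype, with the number of marked probes above each bar; right, the same share for 4 families as points. The highest count, 23, is LKO 6 on slide 3 and the lowest, 10, are Floxed 2 and Floxed 3 on slide 1, while on slide 2 the Floxed arrays (18 and 17) and the LKO arrays (15 and 17) are close.

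Among the probes well above background on all 12 arrays, 1 of the 7 receptor probes differed at an unadjusted limma p below 0.05, and it was lower in LKO mice. Of all 20403 such probes tested, 8.54% passed this threshold, 4.47% higher and 4.07% lower in LKO mice. No probe passed after Benjamini-Hochberg adjustment, and the smallest adjusted p over all was 0.135. The median log2 fold change of the 7 receptor probes was -0.07, against -0.01 for all such probes. For comparison, 33 of 86 Olfr probes (38.4%) in the same fit passed the threshold, 32 of them higher, as did 3 of 17 Vmn1r probes, all higher. Slide values are not given for these 86 Olfr probes. A wider set, the 290 Olfr probes marked on 1 array or more, had a median deviation in log2 intensity of 0.19 to 0.45 in LKO mice 3 to 6. On slide 2 it was -0.21 and -0.17 in LKO mice 1 and 2, and -0.12 and -0.22 in Floxed mice 5 and 6. Probes could enter this set through slide 3 alone, so no rise is read from these values. The mean share of marked Olfr probes was highest there (16.6%, against 11.3% to 14.3% for the other slides and genotypes). Whether the families differ from each other was not tested.

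Tas2r131, a bitter taste receptor, was the receptor probe that passed. Its lowest, median and highest log2 intensity was 4.70, 5.01 and 5.33 in Floxed mice and 3.23, 4.04 and 5.25 in LKO mice, a log2 fold change of -0.76 (SE 0.28, limma p = 0.0181, adjusted p = 0.445, exact permutation p = 0.0433). The low values were those of slide 3, between 3.23 and 4.08 for LKO mice 3 to 6. LKO mice 1 and 2, at 4.94 and 5.25, lay within the Floxed range, and within slide 2 the difference was 0.084. This probe was in the dimmest quintile of probes marked on all arrays, of which 19.5% passed the threshold.

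Tas1r3, the subunit shared by the sweet and umami receptors, spanned log2 intensities of 8.20 to 8.90 (Floxed) and 8.05 to 9.04 (LKO). Its log2 fold change was 0.09 (95% interval -0.30 to 0.47, limma p = 0.636, exact permutation p = 0.639), and the ranges overlapped almost entirely. In the RefSeq annotation Tas1r3 overlaps the coding gene Dvl1 on the other strand. The Dvl1 probe was at 7.43 in Floxed mouse 5 and at 9.93 or above on the other arrays, and Tas1r3 in that mouse was at 8.22, the second lowest of its Floxed values.

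The bitter receptors Tas2r109 and Tas2r113 had lower means in LKO mice, within the spread. Tas2r109 spanned 7.55 to 8.14 (Floxed) and 7.27 to 7.82 (LKO), with a log2 fold change of -0.22 (95% interval -0.48 to 0.04, limma p = 0.0874, adjusted p = 0.690, exact permutation p = 0.102). Tas2r113 spanned 6.38 to 7.11 and 6.20 to 7.03, with a log2 fold change of -0.17 (95% interval -0.51 to 0.18). Neither passed the threshold. In the genome annotation Tas2r131 is the nearest coding gene to Tas2r109, and Tas2r129 the nearest to Tas2r131. The nearest coding gene was another of these receptors for 75.4% of the 142 genes.

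The 3 Vmn2r probes marked on all arrays did not pass either. Vmn2r3 spanned 6.20 to 7.08 (Floxed) and 6.40 to 6.83 (LKO) (log2 fold change 0.05, 95% interval -0.27 to 0.38). Vmn2r4 spanned 4.97 to 5.36 and 4.31 to 5.64 (-0.07, 95% interval -0.52 to 0.38). The LKO values of Vmn2r4 on slide 3 lay both above (5.60 and 5.64) and below (4.65 and 4.31) all Floxed values. Vmn2r10 spanned 4.18 to 4.79 and 4.40 to 5.81 (0.40, 95% interval -0.05 to 0.85, limma p = 0.0799, exact permutation p = 0.104), with its highest value in LKO mouse 5, without which the log2 fold change was 0.22. Vmn2r10 passed the threshold when arrays were scaled to their 75th percentiles (0.54), with slide as a random block (0.42), and without LKO mouse 4 (0.49) or LKO mouse 6 (0.50). Within slide 2 its difference was 0.16 and did not pass.

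**Figure D2:**
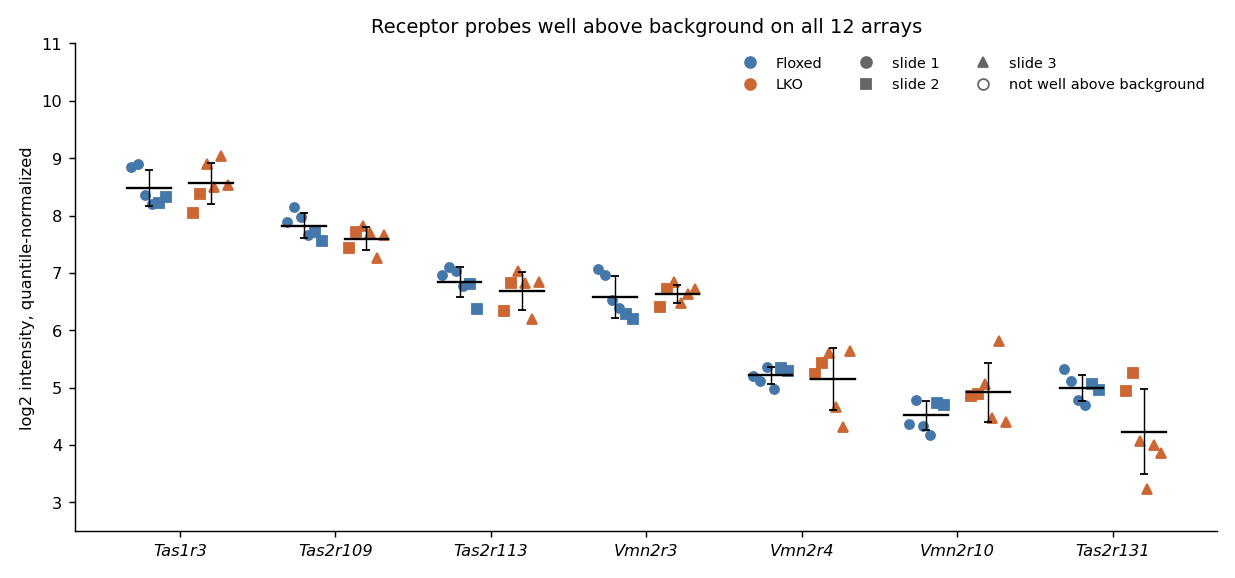
Quantile-normalized log2 intensity of the 7 receptor probes well above background on all 12 arrays, 1 point per mouse, with the mean and SD (n = 6 per genotype). Color gives the genotype and shape the slide. The LKO values of Tas2r131 on slide 3 (3.23 to 4.08) lie below all Floxed values, while the LKO squares of slide 2 (4.94 and 5.25) lie among them; the other 6 probes overlap between genotypes.

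With all probes in the fit, dim ones included, 11 of the 168 receptor probes (6.55%) passed an unadjusted p below 0.05, against 8.60% of the 39428 probes tested. Higher in LKO mice were 8, where all probes gave 4.81%, and lower were 3, where all probes gave 3.79%. None passed after adjustment, and the smallest adjusted p of a receptor probe was 0.194. The median log2 fold change was -0.01, the same as over all probes, with 76 probes above and 92 below 0. When arrays were instead scaled to their 75th percentiles, the split was 129 above and 39 below 0, with a median of 0.08 against 0.04 over all probes and with 13 higher and 1 lower calls among the 168 (all probes, 6.81% higher and 1.72% lower). The split by direction thus rests on the scaling.

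The calls sat mostly among the receptors marked on some arrays. Of the 131 probes marked on none, 4 passed (3.05%, against 4.49% of all such probes), and of the 30 marked on 1 to 11 arrays, 6 passed (20.0%, against 17.9%), all of them higher, where 11.4% of all such probes were. By family, 4 of 113 Vmn2r probes passed, 2 of 3 Tas1r probes, 3 of 37 Tas2r probes and 2 of 15 Taar probes. Of the 11, 6 kept their sign within slide 2, and in 9 the difference within slide 2 was under 0.5 of the whole difference. The like counts over all called probes are not given, so this is not read as a trait of the receptors. With slide as a fixed block, 2.78% of all probes and 1.79% of the receptor probes passed, against 8.60% and 6.55% without it. The sizes also differed with normexp background correction and an offset of 50, which adds a constant to each spot and so compresses dim probes. This setting also used the median spot signal and its background in place of the processed intensity, so the parts of these changes are not separated. The log2 fold changes described below became 0.18 for Tas2r140, 0.24 for Tas1r1, 0.43 for Taar4 and -0.20 for Tas2r131. These passed the threshold there too, as did Tas1r2 and Vmn2r58, while the other 5 of the 11 (Taar5, Vmn2r112, Vmn2r55, Vmn2r69 and Tas2r114) did not. Under this correction 14 receptor probes passed in all (8.33%, against 9.61% of all probes). Without slide 2, 21 receptor probes passed (12.5%, against 12.3% of all probes), 17 of them higher, where all probes gave 6.89%. Without LKO mice 1 and 2, 19 passed (11.3%, against 13.3% of all probes), 16 of them higher, where all probes gave 7.48%. Both settings leave no slide with both genotypes, so genotype and slide cannot be told apart in them.

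Tas2r140, a bitter taste receptor, had the smallest p of all receptor probes. It was well above background in 5 Floxed and 6 LKO mice, with a lowest, median and highest log2 intensity of 2.998, 3.80 and 4.07 in Floxed mice and 4.36, 4.61 and 4.90 in LKO mice. The genotypes did not overlap. The log2 fold change was 0.94 (SE 0.18, limma p = 0.000235, adjusted p = 0.194), and the exact permutation p, 0.00216, is the smallest that 6 against 6 mice can give. Within slide 2 the difference was 0.83, with 4.07 and 3.37 in Floxed mice and 4.36 and 4.73 in LKO mice.

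The 2 partners of Tas1r3 were also higher in LKO mice. Tas1r1, the umami partner, was well above background in 4 Floxed and 6 LKO mice, at 3.20, 3.78 and 4.43 (lowest, median and highest log2 intensity) in Floxed mice and 4.04, 4.54 and 5.02 in LKO mice. Its log2 fold change was 0.74 (SE 0.21, limma p = 0.00477, adjusted p = 0.343, exact permutation p = 0.0108) and its difference within slide 2 was 0.15. Tas1r2, the sweet partner, was not well above background in any Floxed mouse and was so in 2 LKO mice, so that no fold is given. Its measured log2 intensity was 0.96, 2.34 and 2.58 in Floxed mice and 2.77, 3.07 and 3.37 in LKO mice, without overlap (limma p = 0.00516, adjusted p = 0.349, exact permutation p = 0.00216). Within slide 2 it differed by 0.78.

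Non-overlapping genotypes were found for 4 receptor probes with higher and 1 with lower values in LKO mice, where all probes gave 0.55% and 0.228%. Besides Tas2r140 and Tas1r2 these were Tas2r123, Tas2r139 and 1 of 2 probes of Tas2r130, named after their values were seen. These 3 were well above background on no array. Their group means differed by 0.02, 0.02 and -0.01 on the log2 scale, so that only their order separated the groups.

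Among the trace amine-associated receptors, Taar4, a receptor of olfactory neurons, had the largest log2 fold change of all 168 probes. It was well above background in 2 Floxed and 4 LKO mice, at 2.13, 2.90 and 3.64 in Floxed mice and 3.33, 4.97 and 5.95 in LKO mice, a log2 fold change of 1.73 (SE 0.44, limma p = 0.00235, adjusted p = 0.301, exact permutation p = 0.0108). All 4 marked LKO arrays were those of slide 3, at 5.23, 5.25, 5.95 and 4.71, and both marked Floxed arrays were those of slide 2, at 3.64 and 3.40. LKO mice 1 and 2, at 3.62 and 3.33, lay at the level of these Floxed mice, and within slide 2 the difference was -0.045. Its genomic neighbor Taar5 was well above background on no array, and gets no fold. Its measured values were 1.36 to 2.09 in Floxed mice and 1.40 to 3.05 in LKO mice (limma p = 0.0323, exact permutation p = 0.0411), with a difference of -0.30 within slide 2.

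Taar7f was well above background in 1 mouse of each genotype, with a log2 fold change of -0.01 (exact permutation p = 0.978). The other Taar probes, those of Taar1, Taar2, Taar3, Taar6, Taar7a, Taar7b, Taar7d, Taar7e, Taar8a, Taar8b and Taar9, were well above background on no array and did not pass the threshold. Taar1, the receptor that responds to trace amines such as tyramine outside the nose, had mean log2 intensities of 1.37 in Floxed and 1.26 in LKO mice, which are not measurements of its level.

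Among the Vmn2r probes, Vmn2r58 had the largest log2 fold change. It was well above background in no Floxed mouse and in 4 LKO mice, those of slide 3. The LKO mean was 1.20-fold higher than the mean of the lowest signals well above background on each Floxed array. LKO mice 1 and 2, at 2.72 and 2.95, were not marked but entered the LKO mean, so this is not a minimum fold. The measured log2 intensity of Vmn2r58 was 1.48, 2.45 and 2.81 in Floxed mice and 2.72, 3.69 and 3.98 in LKO mice (limma p = 0.00171, adjusted p = 0.273, exact permutation p = 0.00649). Within slide 2 it differed by 0.04. The second Vmn2r58 probe was well above background on no array and did not pass. Of 24 receptor genes with several probes, 3 had a called probe, in no case every probe of the gene, and 15 had probes of both signs.

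The remaining calls were on probes marked on 1 array or none. The called probe of Vmn2r112 was well above background in 1 LKO mouse, and those of Vmn2r55, Vmn2r69 and Tas2r114 in none, so no fold is given for them. Vmn2r112 and 1 of 2 probes of Vmn2r55 had higher measured values in LKO mice (limma p = 0.0317 and 0.0183, exact permutation p = 0.0649 and 0.0281), with differences of -0.29 and -0.21 within slide 2. Vmn2r69 and Tas2r114 had lower ones (limma p = 0.0345 and 0.0409, exact permutation p = 0.00433 and 0.0541), with differences of -0.004 and -0.01 within slide 2.

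**Figure D3:**
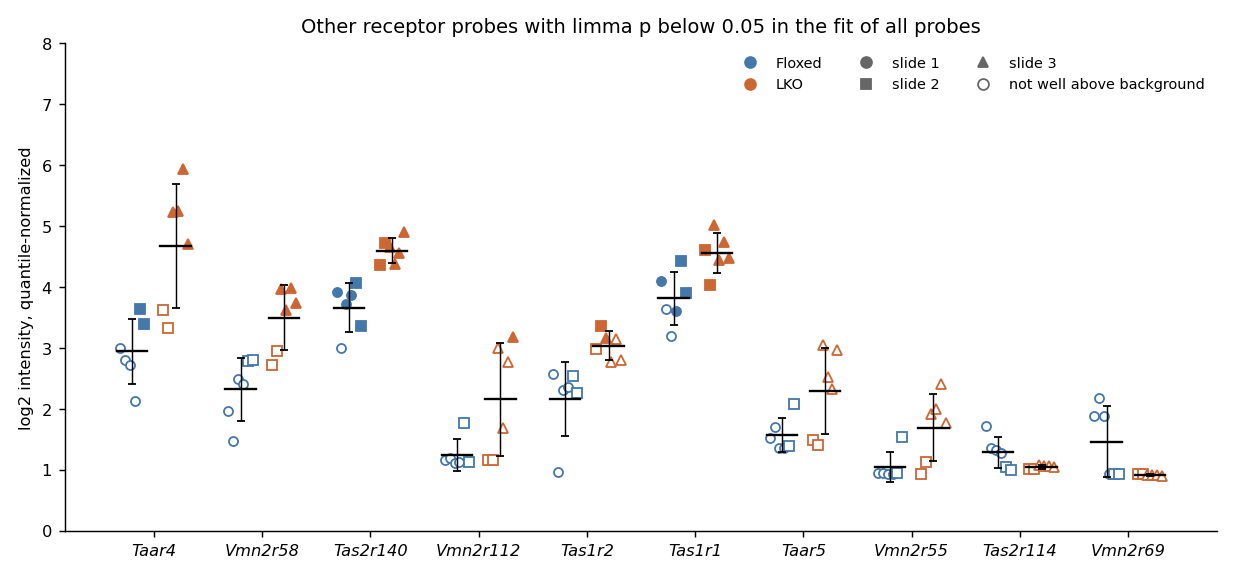
Quantile-normalized log2 intensity of the 10 other receptor probes with an unadjusted limma p below 0.05, 1 point per mouse, with mean and SD (n = 6 per genotype). Filled points were well above background, shape gives the slide, and the probes are ordered by log2 fold change from Taar4 (1.73) to Vmn2r69. In Taar4 and Vmn2r58 the filled LKO points are the 4 mice of slide 3, while in Tas2r140 and Tas1r2 all LKO mice lie above all Floxed mice.

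Receptors marked on several arrays but not called included Vmn2r90, well above background in 6 Floxed and 5 LKO mice, with a log2 fold change of 0.08 (95% interval -0.56 to 0.72). Tas2r118 and Vmn2r121 were each marked in 4 Floxed and 5 LKO mice, with log2 fold changes of -0.13 and 0.05. Tas2r143 was marked in 4 Floxed and 2 LKO mice, at a log2 fold change of -0.77 (95% interval -1.95 to 0.41). Vmn2r56 was marked in 0 Floxed and 4 LKO mice, with measured means of 2.17 and 3.12 (95% interval of their difference -0.35 to 2.26). These examples were chosen after their values were seen, to show that marked arrays ran in both directions.

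**Figure D4:**
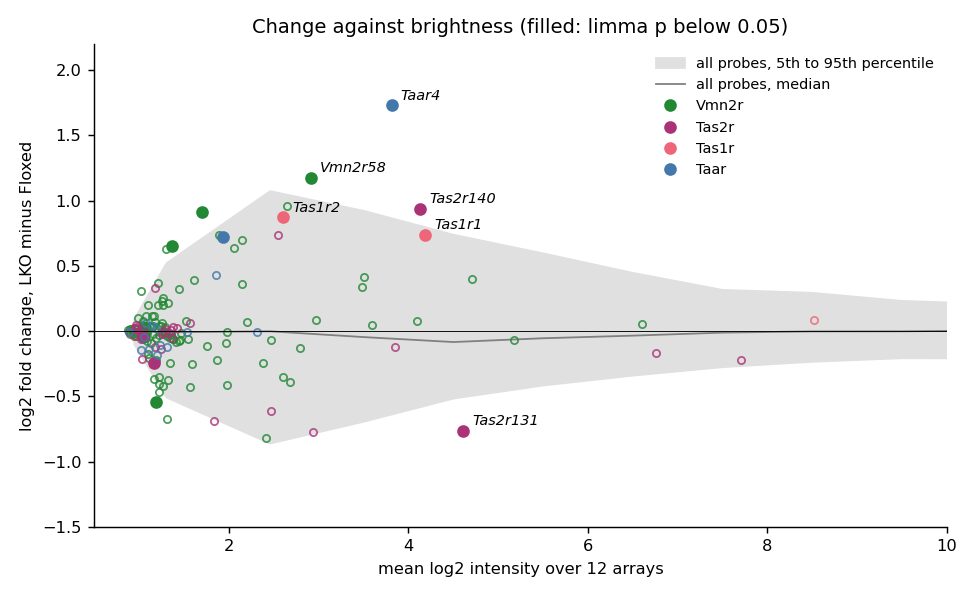
Log2 fold change (LKO minus Floxed) of the 168 receptor probes against their mean log2 intensity over 12 arrays, colored by family, with filled points for an unadjusted limma p below 0.05. The grey band spans the 5th to 95th percentile of all probes of like brightness. Taar4 (1.73) and Tas2r131 (-0.76) are among the probes outside the band, as are Tas2r140 and Vmn2r58. By its definition the band also leaves out a part of all probes. Of the 168 probes, 131, marked on no array, lie at the left, at or below 2.47.

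The genes through which these receptors signal were described from a list of 47, of which 44 were on the array. Each was taken by its brightest probe, as were the cell type markers. Of these, 20 were well above background on all arrays and 16 on none. Of the 20, 2 passed the threshold, both higher in LKO mice. Among all probes marked on all arrays 8.54% passed, 4.47% higher. Plcb2, the phospholipase of the taste cascade, had a lowest, median and highest log2 intensity of 3.33, 3.97 and 4.27 in Floxed mice and 4.35, 4.52 and 4.95 in LKO mice (log2 fold change 0.66, SE 0.17, limma's adjusted p = 0.259). The genotypes did not overlap and the difference within slide 2 was 0.61. Another Plcb2 probe had medians of 1.52 and 1.38 and did not show this difference. Omp, a marker of mature olfactory neurons, was at 3.89, 4.24 and 4.44 in Floxed mice and 4.38, 4.57 and 4.85 in LKO mice (log2 fold change 0.41, SE 0.12, limma's adjusted p = 0.317, 0.50 within slide 2).

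Several defining parts of the cascades were not well above background, while others were so on all arrays. In the taste list 8 of 15 genes were marked on all arrays, among them Plcb2 and Itpr3. Another 4 were marked on none, among them Gnat3, the G protein of taste cells, with Gnb3 and Gng13. Trpm5, the taste channel, was marked on 1 array. In the vomeronasal list 2 of 12 were marked on all arrays, Gnai2 and Ano1, which many tissues express, and 8 on none, among them Gnao1. In the ciliary list 7 of 13 were marked on all arrays, among them the cyclic nucleotide-gated channel subunits Cnga2 and Cngb1. Another 3 were marked on none, among them Adcy3 and the channel subunit Cnga4. The amine enzymes Ddc, Maoa and Maob were marked on all arrays and did not pass the threshold, with log2 fold changes of 0.10, 0.05 and 0.07.

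In the fit of all probes 6 of the 44 signaling genes (13.6%) passed, all of them higher in LKO mice and all with the same sign within slide 2. Of all probes 8.60% passed, 4.81% higher, and of all genes by their brightest probe 8.58%, 5.23% higher. The like count within slide 2 over all called probes is not given. Besides Plcb2 and Omp the 6 genes were the taste channels Trpm5 and Calhm1, the G protein subunit Gng8, and Rtp1, which helps odorant receptors to the cell surface, named after their values were seen. Calhm1 was marked on 2 arrays, Rtp1 and Trpm5 on 1 and Gng8 on 6. Trpm5 had a measured lowest, median and highest log2 intensity of 1.12, 1.16 and 1.98 in Floxed mice and 1.87, 2.04 and 3.06 in LKO mice, and Gng8 of 1.78, 2.54 and 3.98 and of 3.08, 3.62 and 4.27. The genotypes overlapped for both. None passed after adjustment.

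Few markers of the cells that express these receptors elsewhere were well above background throughout. Of 6 tuft cell markers on the array, Dclk1 alone was well above background on all arrays, with a log2 fold change of -0.29, while Gnat3 and Il25 were so on none, and Trpm5, described above, alone passed the threshold in the fit of all probes. Of 5 markers of olfactory and vomeronasal neurons, Omp alone was well above background on all arrays, and Gap43 and Stmn3 were so on none. The part of such cells in the receptor values was not tested.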

How the data were processed

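Liver RNA of 12 mice was measured on single-color (Cy3) Agilent arrays. The labels name TRIzol with a Promega kit for the RNA and the methods name RiboPure. For each array the authors deposited spot intensity values from Agilent Feature Extraction (version 9.5.1.1 in the submitters' processing notes, 10.7.1.1 per the file headers), with background and spatial trends removed and not normalized between arrays. They also deposited a table of quantile-normalized intensity values, used as an alternative.

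Control spots (1377 per array) were left out. The processed intensity was log2-transformed, quantile-normalized over 12 arrays, and averaged over the spots of a probe, with outlier spots missing. Each receptor probe had 1 spot, none saturated or an outlier. Of 28389 probes with a RefSeq accession, 94.3% matched a gene of the RefSeq table (GRCm38.p6). The array was designed on another build, so no coordinates are given. The 20404 probes marked as well above background on every array were tested with limma 3.58.1 in R 4.3.3 (lmFit and eBayes, no covariates), and all probes in a second fit. The criterion was an unadjusted p below 0.05, as in the study's array methods, with Benjamini-Hochberg adjusted p beside it. Probes without a value in one genotype were dropped by each fit (1 probe). Exact permutation tests were two-sided. The fit was tested on simulated data. The number of arrays limits the precision. Named probes are those marked on all arrays, the 10 brightest, the 5 largest called rises and falls, all Tas1r and Taar probes, Phgdh, and called signaling genes. The members and lists were chosen with earlier results of these data known. The titles also give animal numbers, which lie next to each other for mice of the same replicate number, but the labels do not say that a number marks a litter. Replicate numbers were not taken to pair the mice: the deviations of same-numbered mice from their group means correlated between -0.24 and 0.34, with 3 of 6 pairs over 0.1. Alternatives covered scaling, background correction, outlier flags, the deposited table, filters, thresholds, slide, replicate block, the methods' t-test and each array left out. Leaving out slide 2, or LKO mice 1 and 2, was added after seeing the data.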

Additional observations from a re-analysis of the deposited data

Results flagged for a closer look

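Among the named receptor probes, 66 groups of 6 mice were examined for 1 mouse far from the others, and 10 had one. The cutoff was set for about 1 in 20, or 3.3. In none of the 10 was the probe well above background in that group. The rate among other probes of like brightness was not examined, so the 10 are not read as an excess. In Floxed mouse 5, Vmn2r112 was at a log2 intensity of 1.78 (other Floxed mice 1.12 to 1.20), Taar7d at 1.71 (1.17 to 1.26) and Taar3 at 2.14 (1.10 to 1.17). In Floxed mouse 2, Tas1r2 was low at 0.96 (2.27 to 2.58) and Taar2 high at 1.96 (1.38 to 1.52). Taar1 was at 1.74 in Floxed mouse 4 (1.24 to 1.39), Taar6 at 1.77 in Floxed mouse 3 (1.03 to 1.09), and Vmn2r55 at 1.55 in Floxed mouse 6 (0.94 to 0.95). Of the 2 Taar8a probes, one was at 1.80 in Floxed mouse 1 (0.95 to 0.97) and the other at 1.26 in LKO mouse 5 (1.06 to 1.10).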

How the results depend on the processing

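Among probes marked on all arrays, 1 receptor probe was called (8.54% of all such probes, with this share in brackets below). It became 2 under scaling to the 75th percentile (8.34%) and 2 with slide as a random block (11.9%), each with Vmn2r10 gained. It was 0 with slide as a fixed block (1.89%), within slide 2 only (3%), with a log2 fold change of at least 1 (0.441%), and after adjustment (0%). Looser filters gave 4 of 15 receptor probes (6 or more arrays; 9.55% of all probes) and 5 of 19 (positive and significant signal; 9.91%), the additions being Tas2r140, Tas1r1, Taar4 and, in the latter, Vmn2r58. The replicate block gave 2, with Vmn2r10 gained, and over all probes Tas2r114 lost its call; it changed no other count by over 1.5 times. With all probes in the fit there were 11 calls (8 higher, 3 lower), or 6.55% against 8.60% of all probes. Slide as a fixed block gave 3 (1 higher), or 1.79% against 2.78%. A log2 fold change of at least 1 gave 2 (2 higher, 0 lower), or 1.19% against 1.47%. Adjustment left 0 (0 higher, 0 lower), as it did over all probes. The methods' t-test gave 37 of 168 (20 higher, 17 lower), where all probes gave 4175 of 39426. Of the 37, 0 remained after Benjamini-Hochberg. Scaling to the 75th percentile gave 13 higher and 1 lower (all probes 6.81% and 1.72%), and moved the median log2 fold change to 0.078. Within slide 2, 5 were higher (all probes 2.21%), and normexp gave 5 lower (all probes 4.17%). Without slide 2 there were 21 calls (17 higher), where all probes gave 12.3% (6.89% higher). Without LKO mice 1 and 2 there were 19 (16 higher), where all probes gave 13.3% (7.48% higher). In both settings no slide carried both genotypes, so genotype and slide cannot be told apart there. Leaving out 1 mouse gave 1 to 2 calls among probes marked on all arrays (Tas2r109 gained without Floxed mouse 6, Vmn2r10 without LKO mouse 4 or 6). In the fit of all probes it gave 7 (without Floxed mouse 1) to 15 calls (without Floxed mouse 6). Of these, 6 to 12 were higher and 0 (without LKO mouse 6) to 7 (without Floxed mouse 6) lower. All probes in these fits gave 6.91% to 11% called, 3.91% to 6.01% higher and 2.88% to 4.99% lower. Taar5, Vmn2r112, Vmn2r69 and Tas2r114 each lost the call without some mice. The difference in the share of marked probes was -0.89 percentage points within slide 2 and 1.81 to 2.88 with 1 mouse left out. Phgdh had a log2 fold change of -0.34 with the 75th percentile, no longer past the threshold, and -0.055 with slide as a fixed block or within slide 2. Signs turned with slide as a fixed block and within slide 2 for Tas2r131 (0.084), Taar4 (-0.045), Taar5 (-0.30), Vmn2r112 (-0.29) and Vmn2r55 (-0.21), and with normexp for Vmn2r69 (0.074). The cause was not tested. Signal over background limits these values: 131 of 168 receptor probes were never well above it.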
